A study of Mus musculus with 4 samples.

Results

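The proteasome genes were taken as the genes of the count table whose symbol starts with Psma, Psmb, Psmc, Psmd, Psme, Psmf or Psmg followed by a digit, without pseudogenes marked -ps and without symbols ending in ip. There were 49 of them among the 24062 genes of the table. The core particle had 19, the regulatory particle had 20, and the other 10 were alternative caps, an inhibitor and assembly chaperones. Of the 49, 48 passed the filter on low counts and were tested. The exception was Psmb11, a beta subunit used in the thymus, with 1 read in a single Nrf1-CKO library.

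RNA-seq was done on mouse retinas at E13.5, on a mixed C57BL/6 and 129 background, with 2 libraries from wild type (WT) and 2 from Nrf1f/f;Six3-Cre retinas (Nrf1-CKO). In the latter, exon 4 of Nrf1, the gene for nuclear respiratory factor 1, is removed by Cre recombinase, which the Six3 transgene expresses in retinal progenitors, beginning in the central retina, so cells outside its reach keep the gene. Each library was made from pooled retinas of several littermates. The labels do not say whether the libraries of 1 genotype came from separate litters, so p-values measure the spread between these samples, which may be technical.

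The proteasome degrades proteins that carry ubiquitin chains. Its 20S core is a barrel of alpha rings, which gate the entrance, and beta rings, whose beta1, beta2 and beta5 subunits cut the protein; the 19S regulatory particle sits on the ends, where its lid and base bind and remove ubiquitin and its ring of ATPases unfolds the protein. Cells exposed to interferon exchange the cutting subunits for inducible ones, and dividing progenitors and new neurons both depend on the proteasome for the turnover of cell cycle and fate regulators. The factor deleted here is not Nfe2l1, whose protein is also called NRF1 in the literature and which is known as an activator of proteasome genes when the proteasome is inhibited.

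The libraries held 74577660 to 85933945 reads on genes. Counts were scaled to library size with TMM factors, as CPM, and tested with edgeR's quasi-likelihood test, adjusted by Benjamini-Hochberg over 15762 tested genes. Genes were called where the genotypes differed by 1.4-fold or more and the adjusted p did not exceed 0.2, as the study set its limits. Counting error is small at these depths for most of the proteasome genes and large for Psmb8, Psmb9, Psma8 and Psme2, which had few reads. The Nrf1 gene itself had 103, 105, 103 and 100 CPM in WT 1, WT 2, Nrf1-CKO 1 and Nrf1-CKO 2 (log2 fold change −0.03, SE 0.0739), and since the deletion takes out 1 exon, a count over the whole gene does not check the labels. Progenitor markers were present in all libraries, and 0 of 8 were called by edgeR, with 1 of them, Hes1, at an unadjusted p under 0.05 and also at an adjusted p of 0.05 or less by DESeq2. Retinal ganglion cell markers were lower in Nrf1-CKO for 5 of 7 genes (summed 1178 and 1369 CPM in WT, 535 and 449 CPM in Nrf1-CKO), and lens markers were higher for 8 of 8 (138 and 376 CPM against 7825 and 3203 CPM). In these bulk samples, fewer cells of a type and less RNA per cell cannot be told apart.

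Most proteasome genes were expressed at similar levels in both genotypes. Of the 48 tested, 1 fell, the core assembly chaperone Psmg4, and 2 were called higher, the inducible subunits Psmb8 and Psmb9. Psmb9 had 4 and 0 reads in WT and was tested only because of its reads in Nrf1-CKO, so its call is given as a description. Among all tested genes the same rule called 8.04% lower and 12.8% higher. With an adjusted p of at most 0.05 and no minimum fold, Psmg4 fell and Psmb8 rose, against 10.9% lower and 11.9% higher of all tested genes. The 31 constitutive subunits of core and regulatory particle had log2 fold changes between −0.26 and 0.31, and 0 of them were called by either rule, with 3 at an unadjusted p under 0.05 (2 lower and 1 higher). With DESeq2, 3 of these 31 passed the second rule, namely Psma4 and Psmb1 as lower and Psmd11 as higher.

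Many of these estimates had narrow intervals. The intervals rest on the spread between these libraries, which may be technical, so they may not bound the difference between genotypes. For 41 of the 48, the 95% interval of the fold change stayed within 1.4-fold in either direction. The 7 whose interval reached 1.4-fold were Psmg4, Psmb8, Psmb9, Psmb10, Psma8, Psme2 and Psmd11. Among the 43 proteasome genes that averaged at least 10 CPM, 95.3% had an interval within 1.4-fold, compared with 70.3% of the 10037 tested genes at that level. The share was 46.6% over all tested genes, so it depends on level, and the sets were not matched in level above 10 CPM. In this class 1 proteasome gene was called lower and 0 higher, whereas 6.78% of all genes of the class were called lower and 5.98% higher. The count of 0 higher came from edgeR, with 1 gene, Psmd11, higher at an unadjusted p under 0.05.

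The signs were uneven although the sizes were small. Of the 48 genes, 36 had a negative and 12 a positive log2 fold change, so that 75.0% were negative beside 49.9% of all tested genes. Among genes averaging at least 10 CPM, 81.4% of the proteasome genes and 56.3% of all genes were negative. The median of the 48 was −0.09 beside 0.00 for all tested genes and −0.03 for all genes averaging at least 10 CPM. Both Nrf1-CKO libraries were below both WT libraries for 19 genes, 39.6% of the 48, where 31.6% of all tested genes showed this. Both were above for 7 genes, or 14.6%, where 30.9% of all tested genes showed this. Among genes averaging at least 10 CPM the shares were 44.2% lower and 6.98% higher for the proteasome genes, and 37.6% lower and 25.4% higher for all genes. No test was made over the set of genes, because subunits measured in the same libraries are not replicates.

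**Figure D1:**
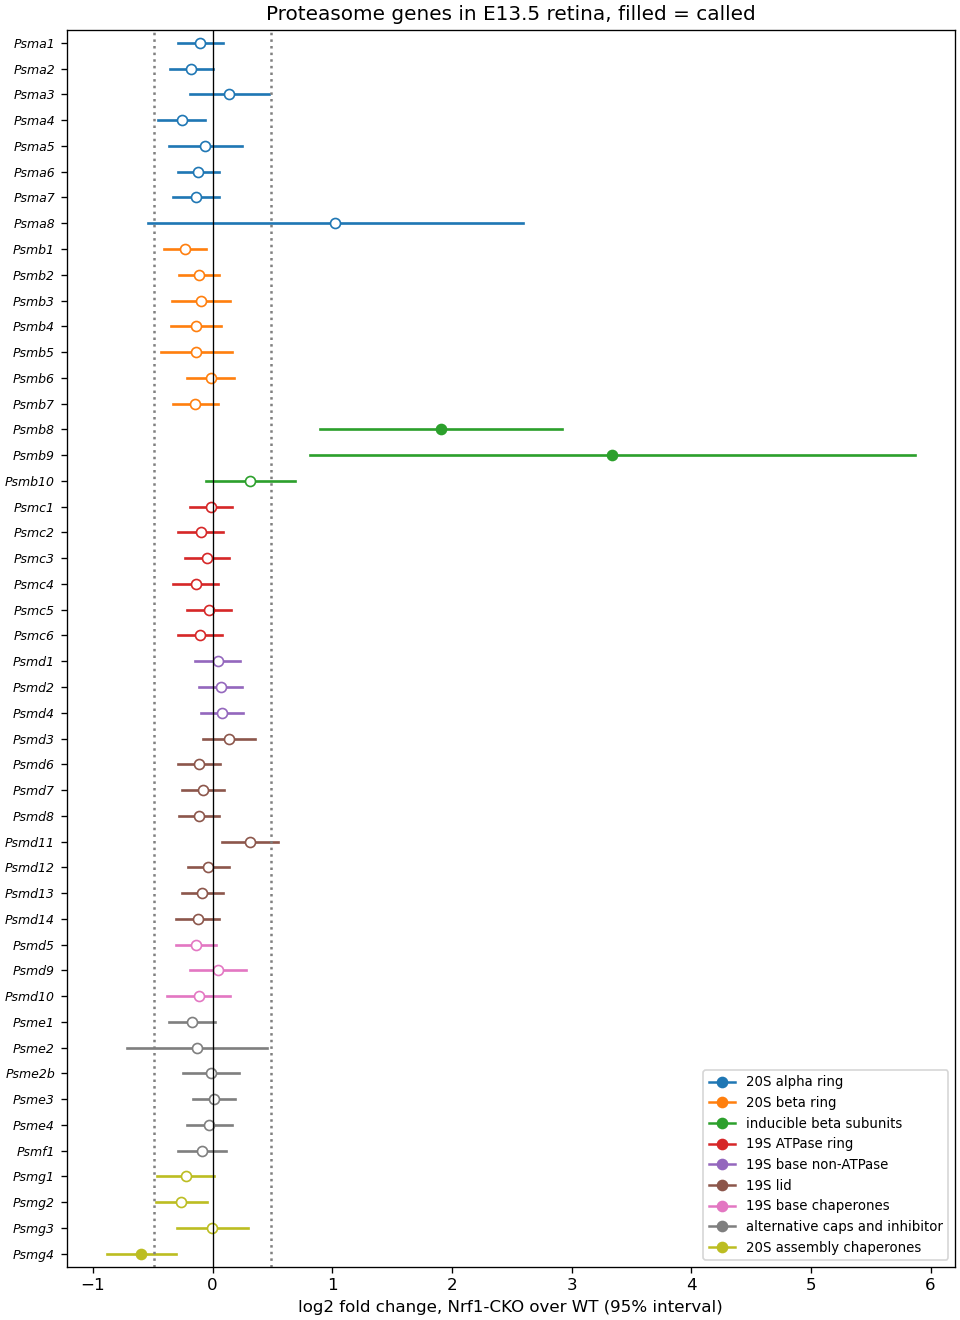
Log2 fold change (x axis, Nrf1-CKO over WT) of the 48 tested proteasome genes (y axis), with 95% intervals, coloured by role. Filled points mark the 3 called genes and dotted lines a fold of 1.4; the constitutive subunits lie between −0.26 and 0.31, while Psmb8 is at 1.91, Psmg4 at −0.59 and Psmb9, with 4 WT reads in all, at 3.34 (2.47 to 7.38 with 1 library left out).

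The promoters bear on this comparison because nuclear respiratory factor 1 binds a GC-rich palindrome. RefSeq promoters (GRCm38.p6, 250 bases before to 50 after the annotated start), the first listed for each gene, were matched for 41 of the 49 genes. The palindrome was searched on both strands as GCGCA and GCGC around 1 base of any kind, and it stood in 7 of the 41, or 17.1%, against 4.78% of all 27025 promoters and 9.35% of the 11602 promoters of tested genes. The 7 windows are printed 5′ to 3′ along the gene's strand with the matched letters in capitals, to show which subunits carry them.
Psma2 (chr13:14613105-14613134, plus strand): ggcccctcttGCGCATGCGCaagggtcaaa
Psma3 (chr12:70974535-70974564, plus strand): tatggtttctGCGCACGCGCgctctctgct
Psma4 (chr9:54950788-54950817, plus strand): tcgcagtcctGCGCACGCGCgggagccata
Psmc4 (chr7:28050242-28050271, minus strand): aagagttactGCGCACGCGCaacatccttg
Psmc5 (chr11:106256126-106256155, plus strand): tttcgcctccGCGCCTGCGCgatagagtga
Psmd14 (chr2:61711604-61711633, plus strand): caggcggcctGCGCGTGCGCtgtgtgctcc
Psmg1 (chr16:95990911-95990937, minus strand): gcgggccggcGCGCATGCGCtgtctgg

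The 7 genes encode the alpha ring subunits Psma2, Psma3 and Psma4, the ATPases Psmc4 and Psmc5, the lid deubiquitinase Psmd14 and the assembly chaperone Psmg1. The match lay 127, 78 and 61 bases before the start in Psma2, Psma3 and Psma4, 169 and 49 bases before it in Psmc4 and Psmc5, 80 bases before it in Psmd14, and 34 bases after it in Psmg1. None of the 7 was called by edgeR's test, with 1, Psma4, at an unadjusted p under 0.05 and also lower by DESeq2 at an adjusted p of 0.05 or less. Their median log2 fold change was −0.14 with 6 of 7 negative, beside −0.09 with 24 of 33 negative for the tested genes whose promoter lacked the letters. A match of letters is not a binding site, and no binding was measured in these samples.

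The alpha rings form the outer layers of the core. Psma4 had 84.6 and 74.6 CPM in the WT libraries and 67.6 and 65.5 CPM in the Nrf1-CKO libraries, so the genotypes did not overlap. Its log2 fold change was −0.26 with an SE of 0.0853 and an adjusted p of 0.0607 by edgeR's quasi-likelihood test with Benjamini-Hochberg adjustment, a difference below 1.4-fold, and the log2 value was −0.16 without WT 1 (adjusted p 0.389) and −0.34 without WT 2. Psma2 (91.2 and 84.3 CPM against 76.3 and 78.8 CPM), Psma6 (95.5 and 90.6 CPM against 84.4 and 87.3 CPM) and Psma7 (146 and 132 CPM against 121 and 132 CPM) also did not overlap between genotypes. None of these 3 was called, and Psma7 missed overlap by a narrow margin, 132.48 against 131.56 CPM. Psma3 was the one alpha gene of the constitutive set with a positive log2 fold change, 0.14, and its genotypes overlapped (10.3 and 10.9 CPM in WT, 13.0 and 10.4 CPM in Nrf1-CKO). Psma8, which replaces Psma7 in the testis, had 15, 14, 21 and 40 reads in WT 1, WT 2, Nrf1-CKO 1 and Nrf1-CKO 2, too few to bound its fold change (log2 1.03, SE 0.690, 95% interval −0.54 to 2.60).

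All 7 constitutive beta genes had negative log2 fold changes, from −0.23 in Psmb1 to −0.02 in Psmb6, and none was called by edgeR under either rule. Psmb1, a structural subunit of the ring, had 134 and 127 CPM in WT and 112 and 110 CPM in Nrf1-CKO, without overlap. Its log2 fold change was −0.23 (SE 0.0757), and its adjusted p of 0.0594 in edgeR's quasi-likelihood test was the lowest among the uncalled genes. At an adjusted p of 0.05 without a minimum fold it passed with DESeq2 (0.0379), limma on the deposited values (0.0497) and the replicate block (0.0435). Among the cutting subunits, Psmb7 (beta2) had 126 and 127 CPM against 108 and 121 CPM, a log2 fold change of −0.14. Psmb6 (beta1), the gene with the highest level per kilobase of exon in the rings, overlapped between genotypes at 211 and 214 CPM against 197 and 223 CPM. Psmb5 (beta5) also overlapped, with 39.0 and 51.5 CPM in WT and 38.7 and 43.7 CPM in Nrf1-CKO, and the WT libraries differed more from each other than the genotype means did. Without WT 2 the log2 fold change of Psmb5 was 0.08 instead of −0.13.

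Per kilobase of exon, the levels within a ring spread widely although the subunits are incorporated in equal numbers. In WT, the beta ring ranged from 11.6 CPM per kilobase in Psmb3 to 113 in Psmb6. In the constitutive alpha ring, Psma3 was at 2.73 CPM per kilobase and Psma6 at 75.4. Exon lengths are unions over annotated transcripts, and reads that match several places were not counted, so levels between genes are approximate. Psma3, Psma5, Psmb3 and Psmb5 share 50-base stretches with other annotated transcripts, at 15.4%, 659 of 1319, 17.8% and 54.1% of their stretches. Over the 49 genes, 11 shared at least 10% and 20 shared none.

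**Figure D2:**
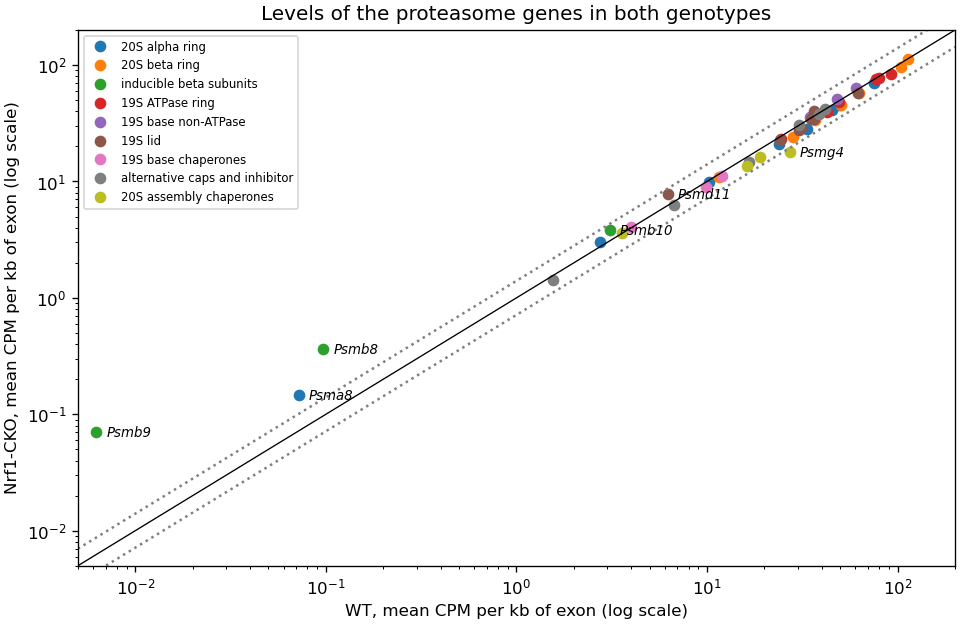
Mean CPM per kilobase of exon in WT (x axis, log scale) and Nrf1-CKO (y axis, log scale) for the proteasome genes with reads in WT, coloured by role; the line marks equality and the dotted lines a fold of 1.4. The constitutive genes follow the line across their range, Psmb8 moves from 0.0971 to 0.366 and Psmb9 from 0.00624 to 0.0709, and Psmg4 lies at 27.2 and 18.02.

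The ATPase ring of the 19S base was close to WT. All 6 genes, Psmc1 to Psmc6, had negative log2 fold changes, from −0.14 in Psmc4 to −0.02 in Psmc1, and none was called or had an unadjusted p under 0.05 by edgeR, nor was any called by DESeq2. Psmc4 had 199 and 201 CPM in WT and 172 and 192 CPM in Nrf1-CKO, without overlap, and its log2 value lay between −0.22 and −0.06 with 1 library left out. Psmc1 overlapped, with 96.5 and 93.0 CPM against 90.9 and 96.5 CPM. The 3 base subunits that are not ATPases went the other way in sign, with log2 fold changes of 0.04 for the scaffold Psmd1, 0.07 for the scaffold Psmd2 and 0.08 for the ubiquitin receptor Psmd4. Psmd2 had 244 and 244 CPM in WT against 247 and 265 CPM, and Psmd4 131 and 140 CPM against 141 and 146 CPM. None of the 3 was called, the log2 value of Psmd4 lay between 0.04 and 0.13 with 1 library left out, and the sign of Psmd1 turned to −0.03 without Nrf1-CKO 2.

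The lid carries the deubiquitinase and a frame of scaffold subunits. Psmd11, a scaffold subunit, had 42.1 and 37.5 CPM in WT and 53.6 and 45.3 CPM in Nrf1-CKO, so both mutant libraries were above both WT libraries. Its log2 fold change was 0.31 (SE 0.104), the highest of the regulatory particle, and its adjusted p was 0.0619 with edgeR's quasi-likelihood test, below the fold needed for a call. The log2 value was 0.19 without Nrf1-CKO 1 and 0.43 without Nrf1-CKO 2 (adjusted p 0.254 and 0.00716 by edgeR), and at an adjusted p of 0.05 without a minimum fold the gene also passed with upper-quartile scaling (0.0405) and the replicate block (0.0131). Psmd3 was the other lid gene with a positive value, 0.14, and overlapped (166 and 197 CPM against 193 and 206 CPM). The other 6 lid genes had log2 fold changes between −0.12 and −0.03, with Psmd14, the deubiquitinase that removes the chain from the substrate, lowest at −0.12 (85.3 and 85.2 CPM in WT, 81.7 and 74.7 CPM in Nrf1-CKO, and −0.19 to −0.06 with 1 library left out). Of the base chaperones, which guide the ATPase ring together and leave the finished particle, Psmd5 was lowest at −0.14 (70.9 and 71.6 CPM against 63.7 and 65.8 CPM) and Psmd9 highest at 0.04, and none of the 3 was called.

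Core and regulatory particle were compared within each library. Summed over their genes, the core had 656 and 647 CPM per kilobase in WT and 582 and 623 in Nrf1-CKO, 92.5% of the WT mean, without overlap. The regulatory particle had 801 and 793 in WT against 757 and 793 in Nrf1-CKO, 97.3% of the WT mean, and the higher mutant library lay within the WT range. The core to regulatory ratio was 0.819 and 0.816 in WT and 0.770 and 0.785 in Nrf1-CKO, lower in both mutant libraries, and the mutant mean was 0.951 of the WT mean. With 2 libraries against 2, no test was made of this ratio.

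The difference between the particles was small and depended on how it was summarised. The median log2 fold change was −0.11 for the core and −0.06 for the regulatory particle, a difference of −0.04, and without Nrf1-CKO 1 it was 0.0005. With only the 14 constitutive core genes and the 17 regulatory genes that are not base chaperones, the medians were −0.13 and −0.05. When mean log2 levels replaced sums, the ratio turned to the opposite direction, 0.461 and 0.460 in WT against 0.490 and 0.512 in Nrf1-CKO, since that mean gives Psmb8, Psmb10 and Psma8 the same weight as the abundant subunits. Psmb9 and Psmb11, with libraries at 0 reads, have no log2 level in every library and were left out of it. Restricted to the constitutive genes, the same measure was 0.846 and 0.830 in WT against 0.780 and 0.791 in Nrf1-CKO, in the direction of the sums. This restriction was chosen after the values were seen.

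**Figure D3:**
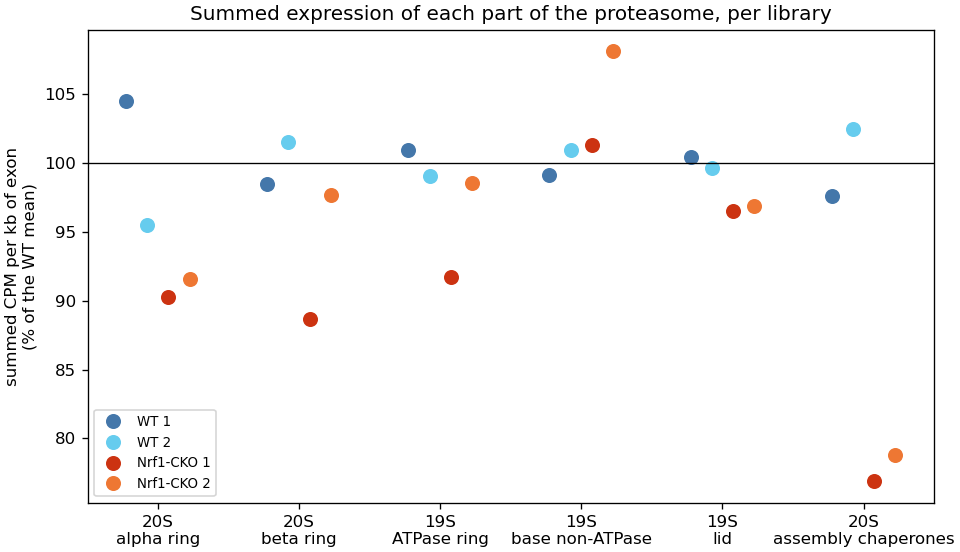
Summed CPM per kilobase of exon of each part of the proteasome (x axis) in each of the 4 libraries, as percent of the WT mean (y axis, not from 0); the alpha ring is shown without Psma8. The assembly chaperones stand at 77.8% of the WT mean, the alpha and beta rings at 90.9% and 93.2%, the ATPase ring and lid at 95.1% and 96.7%, and the base non-ATPase subunits at 104.7%.

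The assembly chaperones of the core were the group with the lowest median, −0.24, and 4 of 4 negative. Psmg3 counts among these at −0.001, and its sign turned with DESeq2 and with other scalings. Psmg1 to Psmg4 help to build the alpha ring and are not part of the mature core. Psmg4 had 14.6 and 15.7 CPM in WT and 9.41 and 10.6 CPM in Nrf1-CKO, from 1275 and 1161 reads against 782 and 876 reads. The 2 genotypes were well apart, and the gene fell by 0.59 on the log2 scale (SE 0.126, 95% interval −0.88 to −0.31, adjusted p 0.00953 by edgeR's quasi-likelihood test with Benjamini-Hochberg adjustment). It fell in every fit that left out 1 library, with log2 fold changes from −0.68 to −0.51. It was not called when the test was made against a fold of 1.4 (glmTreat), nor with limma on the deposited log2 values, where its log2 fold change was −0.41 (adjusted p 0.00967), and at an adjusted p of 0.05 without a minimum fold its call was lost without WT 2.

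Its pairing partners differed in their values. Psmg1 and Psmg2 form one heterodimer, and Psmg3 and Psmg4 the other. Psmg3 had 10.7 and 10.1 CPM in WT and 9.91 and 10.8 CPM in Nrf1-CKO, a log2 fold change of 0.00 with a 95% interval of −0.30 to 0.29. Psmg2 had 28.2 and 28.3 CPM against 23.0 and 24.2 CPM (log2 fold change −0.26, SE 0.0930, adjusted p 0.0796 by edgeR), and Psmg1 24.4 and 26.3 CPM against 22.9 and 20.4 CPM (−0.23, SE 0.105, adjusted p 0.167). Both were without overlap and below the fold needed for a call. The difference between Psmg4 and Psmg3 within the heterodimer was not tested.

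The third kind of core gene encodes the inducible cutting subunits, which replace beta5 (Psmb8), beta1 (Psmb9) and beta2 (Psmb10) in the immunoproteasome. Psmb8 had 28 and 25 reads in WT and 106 and 99 reads in Nrf1-CKO, or 0.320 and 0.337 CPM against 1.28 and 1.197 CPM. It rose by 1.91 on the log2 scale (SE 0.446, 95% interval 0.89 to 2.92, adjusted p 0.0151 by edgeR's quasi-likelihood test). With limma on the deposited log2 values the log2 fold change of Psmb8 was 0.41 (adjusted p 0.00922), short of 1.4-fold, and at an adjusted p of 0.05 without a minimum fold its call was lost in each fit that left out 1 library. Psmb9 had 4 and 0 reads in WT and 21 and 22 reads in Nrf1-CKO, and its log2 fold change of 3.34 (SE 1.11, adjusted p 0.0625 by edgeR) rests on those 4 WT reads. With 1 library left out, the log2 value lay between 2.47 and 7.38, the latter without WT 1, where WT was left with 0 reads and the fitted value is no bound. It passed the filter on low counts only through Nrf1-CKO, where it was high. Its call was lost without WT 2 (adjusted p 0.237) and without Nrf1-CKO 2 (adjusted p 0.212).

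Psmb10 was the most abundant of the inducible genes, with 5.16 and 5.37 CPM in WT and 6.15 and 6.95 CPM in Nrf1-CKO. Both mutant libraries were above both WT libraries, but its log2 fold change of 0.32 (SE 0.164, adjusted p 0.214 by edgeR's quasi-likelihood test) was not called. In Nrf1-CKO, Psmb8 stayed at 0.366 CPM per kilobase of exon, beside 45.8 for its constitutive counterpart Psmb5. Psme1 and Psme2, which form the interferon-inducible cap, were not called and had negative log2 fold changes. Psme1 had 36.9 and 36.5 CPM against 33.2 and 31.9 CPM (log2 −0.17, SE 0.0835), and Psme2 had 2.49 and 3.02 CPM against 2.26 and 2.78 CPM (log2 −0.13, SE 0.257). Psme2 shares 28.3% of its 50-base stretches, and Psme2b 69.3%, with other transcripts, so reads from these stretches may have gone uncounted. Pooled, Psme2 and Psme2b had 26.5 and 30.1 CPM in WT and 27.2 and 28.5 CPM in Nrf1-CKO, with overlap, and pooling does not recover such reads. The other caps Psme3 and Psme4 and the inhibitor Psmf1 lay between −0.09 and 0.01 and were not called.

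**Figure D4:**
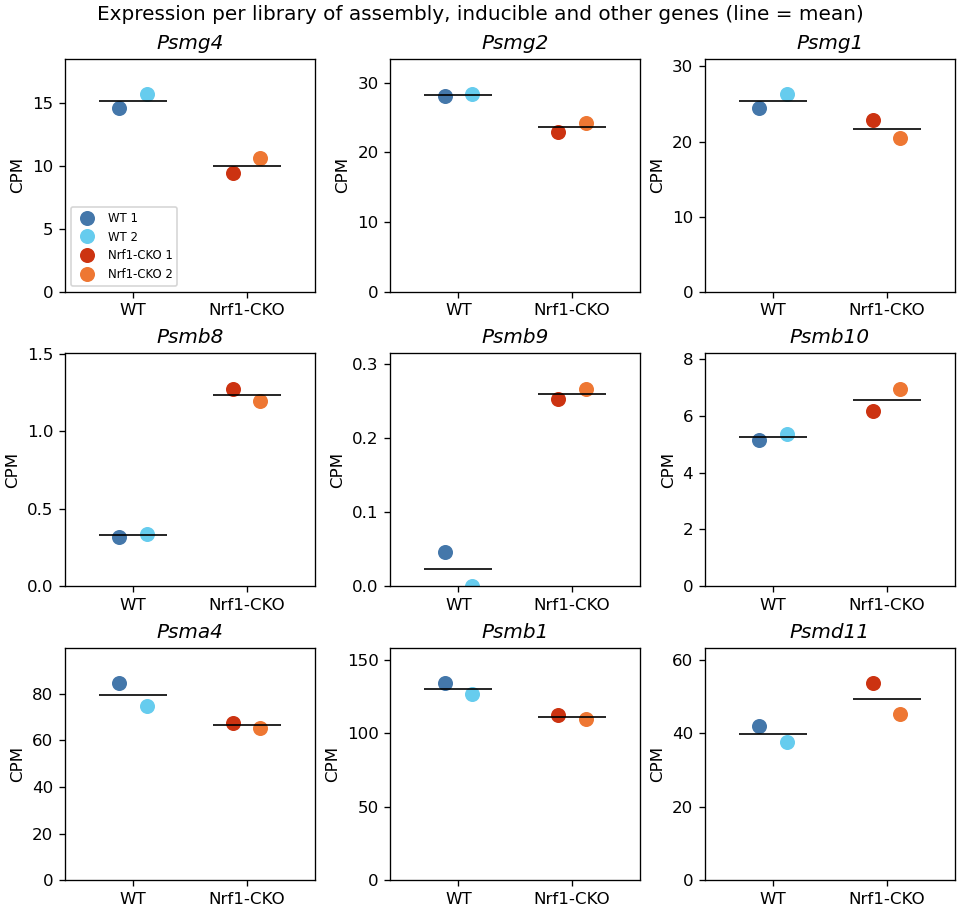
CPM (y axis, from 0) in the 4 libraries by genotype (x axis) for 9 genes, with the mean as a line. Psmg4, Psmg2 and Psmg1 are lower in both Nrf1-CKO libraries, Psmb8, Psmb9 and Psmb10 are higher at low levels (Psmb9 reaches 0.266 CPM), and Psma4, Psmb1 and Psmd11 differ between genotypes by less than 1.4-fold.

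Psmb8 and Psmb9 are neighbours in the major histocompatibility region on chromosome 17 (GRCm38), Psmb9 at 34181987 to 34187764 on the minus strand and Psmb8 at 34197721 to 34201454 on the plus strand, with a gap of 9.96 kb in which most of Tap1 lies. Tap1 and Tap2 encode the transporter that carries proteasome peptides to MHC class I. Tap1 had 97 and 139 reads in WT and 232 and 262 in Nrf1-CKO (log2 1.00, SE 0.321, adjusted p 0.0540 by edgeR), and Tap2 had 16 and 14 reads against 75 and 63 (log2 2.16, SE 0.553, adjusted p 0.0228), so both rose. The call of Tap1 was lost without WT 1 (log2 0.67, adjusted p 0.220 by edgeR), and with 1 library left out its log2 fold change lay between 0.67 and 1.43. The adjusted p of Tap2 was 0.0881 to 0.152 in these fits, within the limit of the fold rule and above 0.05. The exons of Psmb9 and Tap1 overlap by 212 bases on opposite strands, and those of Psmb8 overlap an antisense gene by 498 bases. Whether the counting used strand is not given in the sources used here, so reads of such pairs may not be separable.

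Of 16 tested genes of an interferon response list, 4 rose (B2m, Tap1, Tap2 and Bst2) and 1 fell (Stat2), where 12.8% of all tested genes were called higher and 8.04% lower. B2m stood at the limit of the rule, with a change of 1.4001-fold. Markers of several other cell types were higher in Nrf1-CKO as well, including the lens markers given above. Of 12 macrophage and microglia markers 12 rose, none was at 0, and their summed level was 93.0 and 86.5 CPM in WT and 277 and 337 CPM in Nrf1-CKO. Markers of endothelium were higher for 5 of 7 and lower for 1, of pigment epithelium for 4 of 5 tested, of mesenchyme for 5 of 7 and of the erythroid lineage for 2 of 4 tested. The part of these cells in the higher counts of Psmb8 and Psmb9 was not tested.

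The 300-base promoters of the 3 called genes are printed because the genes moved in opposite directions and 2 of them are textbook interferon targets. They are from RefSeq (GRCm38.p6) and run 5′ to 3′ along the gene's strand, and capitals mark in Psmg4 an interferon-response-like motif, GAAA repeated after 2 bases of any kind, and TTCNNNGAA, an interferon-gamma-activated-site-like motif, in Psmb8.
Psmg4 (chr13:34162714-34163013, plus strand): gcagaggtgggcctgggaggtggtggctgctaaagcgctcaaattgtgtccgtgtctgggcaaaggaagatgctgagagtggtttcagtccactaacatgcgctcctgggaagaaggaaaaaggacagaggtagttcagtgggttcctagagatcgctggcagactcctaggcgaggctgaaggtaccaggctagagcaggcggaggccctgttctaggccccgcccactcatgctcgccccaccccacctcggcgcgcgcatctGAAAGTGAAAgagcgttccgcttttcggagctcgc
Psmb8 (chr17:34197945-34198244, plus strand): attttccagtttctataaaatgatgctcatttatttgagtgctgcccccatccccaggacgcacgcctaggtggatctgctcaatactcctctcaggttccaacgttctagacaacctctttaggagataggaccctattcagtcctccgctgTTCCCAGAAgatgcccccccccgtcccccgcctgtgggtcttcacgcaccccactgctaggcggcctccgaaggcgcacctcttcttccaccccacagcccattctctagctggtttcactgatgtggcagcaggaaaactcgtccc
Psmb9 (chr17:34187281-34187580, minus strand): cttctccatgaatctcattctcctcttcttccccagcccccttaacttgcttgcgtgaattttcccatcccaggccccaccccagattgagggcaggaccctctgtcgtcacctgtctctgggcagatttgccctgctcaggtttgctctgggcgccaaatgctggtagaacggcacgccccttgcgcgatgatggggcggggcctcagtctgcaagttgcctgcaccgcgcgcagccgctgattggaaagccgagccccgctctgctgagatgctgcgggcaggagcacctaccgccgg

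The repeated GAAA, searched on both strands, was in 5 of the 41 promoters (12.2%) against 3.49% of all promoters and 2.78% of those of tested genes. The 5 genes were Psmb3, Psmd4, Psmd9, Psme1 and Psmg4, and not Psmb8 or Psmb9. The printed windows of Psmb8 and Psmb9 lie within the gene spans given above, so sequence before those spans was not searched. The match in Psmg4 begins 16 bases after the start and that in Psme1 10 bases after it. The letters TTCNNNGAA, searched likewise, were in 3 of 41 (7.3%, against 6.61% of tested genes), in Psmb8 97 bases before the RefSeq start, within the gene span, and also in Psmd2 and Psmg1. TGACNNNGC, the antioxidant response element that Nfe2l1 and Nfe2l2 bind, was in 6 of 41 (14.6%, against 14.64% of tested genes), namely Psmb5, Psmb6, Psmc6, Psmd9, Psmd12 and Psme4. Their log2 fold changes lay between −0.13 and 0.04, and none was called.

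Genes that work beside the proteasome were read from lists of partners and of the ubiquitin supply. Of 22 partners tested, 0 were called by the fold rule in edgeR or DESeq2, 6 had an unadjusted p under 0.05 in edgeR, and 4 had an adjusted p of 0.05 or less in DESeq2. In edgeR, at an adjusted p of 0.05 with no minimum fold Akirin2 fell and Nfe2l2 rose. Akirin2, which brings the proteasome into the nucleus, had 81.6 and 84.8 CPM in WT and 67.9 and 63.0 CPM in Nrf1-CKO (log2 −0.35, SE 0.0783, adjusted p 0.0129 by edgeR). Its call was lost without WT 1 (adjusted p 0.0649) and without WT 2 (adjusted p 0.118). Nfe2l2, the activator of the oxidative stress response, had 27.9 and 28.7 CPM against 38.6 and 37.8 CPM (log2 0.43, SE 0.0846, adjusted p 0.00648), and its call was lost without WT 1 (adjusted p 0.0555). Nfe2l1 had 143 and 132 CPM against 164 and 156 CPM, without overlap, and was not called (log2 0.22, SE 0.0790, adjusted p 0.0813 by edgeR), though its adjusted p was 0.0435 with DESeq2 and 0.0462 with upper-quartile scaling. Pomp, the chaperone that completes the core after the Psmg proteins, had 65.99 and 62.6 CPM against 61.4 and 61.4 CPM (log2 −0.07).

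Of 14 genes of the ubiquitin supply, 2 fell by the fold rule. Uchl1, a ubiquitin hydrolase abundant in neurons, had 124 and 151 CPM in WT and 65.3 and 63.1 CPM in Nrf1-CKO (log2 −1.10, SE 0.103, adjusted p 0.000211 by edgeR's quasi-likelihood test). Rps27a, a ubiquitin fusion gene with many pseudogenes, had 4.24 and 5.86 CPM against 3.12 and 3.25 CPM (log2 −0.66, SE 0.221, adjusted p 0.0627 by edgeR). Its call was lost without WT 2, where the log2 value was −0.41, and with limma on the deposited values (−0.31), and the value reached −0.88 with 1 library left out. At an adjusted p of 0.05 with no minimum fold, Ubb, which encodes a chain of ubiquitin units (456 and 442 CPM against 338 and 311 CPM, log2 −0.47, SE 0.0816) and the conjugating enzyme Ube2d1 (41.5 and 38.6 CPM against 32.9 and 26.3 CPM, log2 −0.44, SE 0.116) fell as well. The call of Ube2d1 was lost without WT 1, WT 2 or Nrf1-CKO 2 (adjusted p 0.151, 0.0893 and 0.0853 by edgeR), and its log2 fold change lay between −0.61 and −0.29 with 1 library left out. Retinal ganglion cell markers were lower in the same libraries, by the sums given above, and their part in the fall of Uchl1 was not tested.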

How the data were processed

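Total RNA of 4 libraries of E13.5 retinas was sequenced. Per the study's methods and the submitters' processing notes, the authors aligned reads to mm10 with TopHat2 and deposited whole-number HTSeq counts per gene. They also deposited normalized log2 values. The notes list DESeq and limma without a role, and how these values were normalized is not given in the sources used here. The summary lines of the count table (74.0% to 75.0% of each library's total, mostly reads without a unique alignment) were left out. Cuffdiff, named by the study, needs aligned reads and was replaced by edgeR 4.0.16 in R 4.3.3 (filterByExpr at a minimum count of 10, TMM, glmQLFit and glmQLFTest, 2 WT against 2 Nrf1-CKO), with Benjamini-Hochberg adjustment over 15762 of 24062 genes. The biological coefficient of variation was 12.0%. Reads on genes were 85933945 and 74577660 in WT and 83540824 and 83425985 in Nrf1-CKO.

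SE was the size of the log2 fold change divided by the square root of F. Replicates differed by far more than counting noise (chi-square per gene 47.6 in WT and 59.1 in Nrf1-CKO). Levels per kilobase used the GENCODE M21 exon union (GRCm38). Named genes were those called, the extremes of each role, genes near 0 reads and the interferon-inducible members, together with Nrf1, Nfe2l1 and the called genes of the other lists; further genes named for their values (such as Psmg1 or Psma2) were chosen after the values were seen. The members and lists were chosen with earlier results of these data known. Tests were tried on simulated data. Alternatives were DESeq2 1.42.0, limma 3.58.1 on the deposited log2 values, other scalings and filters, a replicate block and leaving out each library. Results for some genes are not reported here.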

Additional observations from a re-analysis of the deposited data

How the results depend on the processing

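Psmb8, Psmb9 and Psmg4 were the genes called by the fold rule under DESeq2, median-of-ratios, library-size and upper-quartile scaling, no filter, scaling without other-tissue markers and the replicate block. With at least 10 reads in every library, 1 gene was higher, because Psmb9 was not tested. Under glmTreat, 0 were lower, and with limma on the deposited values, whose log2 fold changes were smaller (0.41 for Psmb8, 0.31 for Psmb9, −0.41 for Psmg4), 0 were called in either direction. The counts with 1 library left out were 1 lower and 1 to 2 higher. At an adjusted p of 0.05, DESeq2 called 3 lower and 2 higher, limma 2 and 2, and upper-quartile scaling 2 higher, while leaving out 1 library gave 0 to 1 lower and 0 to 1 higher (0 and 0 without WT 2, and 0 higher without WT 1 or Nrf1-CKO 1). The causes were not tested.

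The labels do not say that replicate numbers mark a shared litter or batch, and the numbers were not treated as pairs (correlation of deviations −0.005 over all tested genes, 0.282 over the proteasome genes). With the replicate block, 3 were lower and 2 higher at an adjusted p of 0.05, with Psma4, Psmb1 and Psmd11 added to Psmg4 and Psmb8.

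Leaving out 1 library gave core medians of −0.143 to −0.0388, regulatory medians of −0.0739 to −0.0156 and differences of −0.0741 to 0.0005. Upper-quartile scaling gave a regulatory median of −0.025, and constitutive genes alone a difference of −0.0767. The core to regulatory ratio, mutant over WT, was 0.951 and became 0.934 with sums not divided by length, 1.09 with mean log2 levels and 0.938 with mean log2 levels of constitutive genes.

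Among the genes followed under each alternative, those whose sign turned were uncalled. Under upper-quartile scaling Nrf1 was at 0.006, Psmb6 at 0.0242, Psmc1 at 0.0238 and Psmg3 at 0.0386. Psme3 was at −0.0096 with library size only, and Psmg3 at 0.0036 with DESeq2, 0.0041 with median-of-ratios factors, 0.0021 with limma and 0.005 with at least 10 reads in every library. With 1 library left out the ranges were −0.319 to 0.0833 (Psmb5), −0.11 to 0.0727 (Psmb6), −0.0619 to 0.0278 (Psmc1), −0.031 to 0.11 (Psmd1), −0.0575 to 0.136 (Psmd9), −0.284 to 0.0225 (Psme2), −0.0327 to 0.0633 (Psme3) and −0.0685 to 0.0626 (Psmg3). glmTreat was not run at an adjusted p of 0.05. An arm left with 1 library was assumed to vary like the other.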
